A study of Mus musculus with 12 samples.

Results

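The skin response to 1-chloro-2,4-dinitrobenzene (DNCB) was taken from 6 of the 12 RNA-seq libraries of the series, 3 from DNCB-treated dorsal skin and 3 from vehicle-treated dorsal skin, chosen by their group labels. All mice were female BALB/c mice bought at 6 weeks of age. Nothing in the sources says whether the 3 libraries of a group came from separate mice, so p-values measure the spread between these libraries, which may be in part technical. In the DNCB group the shaved back was sensitized with 1% DNCB from day 0 to day 9 and challenged with 0.5% DNCB from day 12 to day 27, while the control group (labelled Solvent) received the vehicle of acetone and olive oil alone. Both groups were shaved, depilated with hair removal cream before the first application and shaved again late in the schedule, and whole dorsal skin was taken on day 30. The right ear was painted as well and was not analysed here. The other 6 libraries came from mice that received DNCB and mesenchymal stem cells, and they entered the model only to estimate the spread between libraries. Of 36400 genes in the deposited table, 21890 averaged 0.1 FPKM or more across the 12 libraries and were tested, where FPKM counts fragments per kilobase of gene scaled to the depth of the library.

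DNCB is a small reactive chemical that binds skin proteins. The modified proteins are recognised as foreign, and repeated painting gives a contact dermatitis that is used as a model of atopic dermatitis. Skin responds to such injury on several levels: keratinocytes, the epithelial cells of the epidermis, divide and switch from the proteins of the normal cornified layer to a set of stress proteins, leukocytes enter from the blood, and dermal fibroblasts lay down matrix.

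The 2 groups differed widely. By the quasi-likelihood F-test of edgeR with Benjamini-Hochberg adjustment, 1442 genes were higher and 1656 were lower in the DNCB group with the adjusted p below 0.05 and the log2 fold change (log2FC, given with its standard error) beyond 1 in either direction. These are 6.59% and 7.57% of the genes tested, or 14.2% in both directions, and every count of a gene group given here is to be read beside those shares. The change was over 4-fold for 594 of the higher and 593 of the lower genes, and over 16-fold for 199 and 132. The median log2FC over all genes was 0.022. With library size as the only scaling, that median was 0.203 and the split was 2020 higher and 1301 lower, so the balance between higher and lower depends on the scaling. No called gene changed its sign under any alternative, but only 73.4% to 82.8% of the calls were kept with 1 library left out. FPKM levels, unlike the fold changes, carry no correction for composition, and a ratio of FPKM means therefore lies slightly above the fitted fold.

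Libraries held 63877153 to 75134001 estimated counts, in which 40.6% to 43.0% of the values from 1 to 16 were multiples of 4. Floors given below assume 4 counts per fragment, which the sources do not state; with fewer counts per fragment the floor would be lower and each bound higher. Tissue content differed between the groups. A list of 20 skeletal muscle genes took 6.67% to 9.56% of all counts in the control libraries and 2.19% to 2.86% in the DNCB libraries, and genes of the mitochondrial genome took 8.15% to 11.1% and 4.0% to 5.33%. In bulk tissue, fewer cells of a type and less RNA per cell cannot be told apart, and this holds for every cell type named below.

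**Figure D1:**
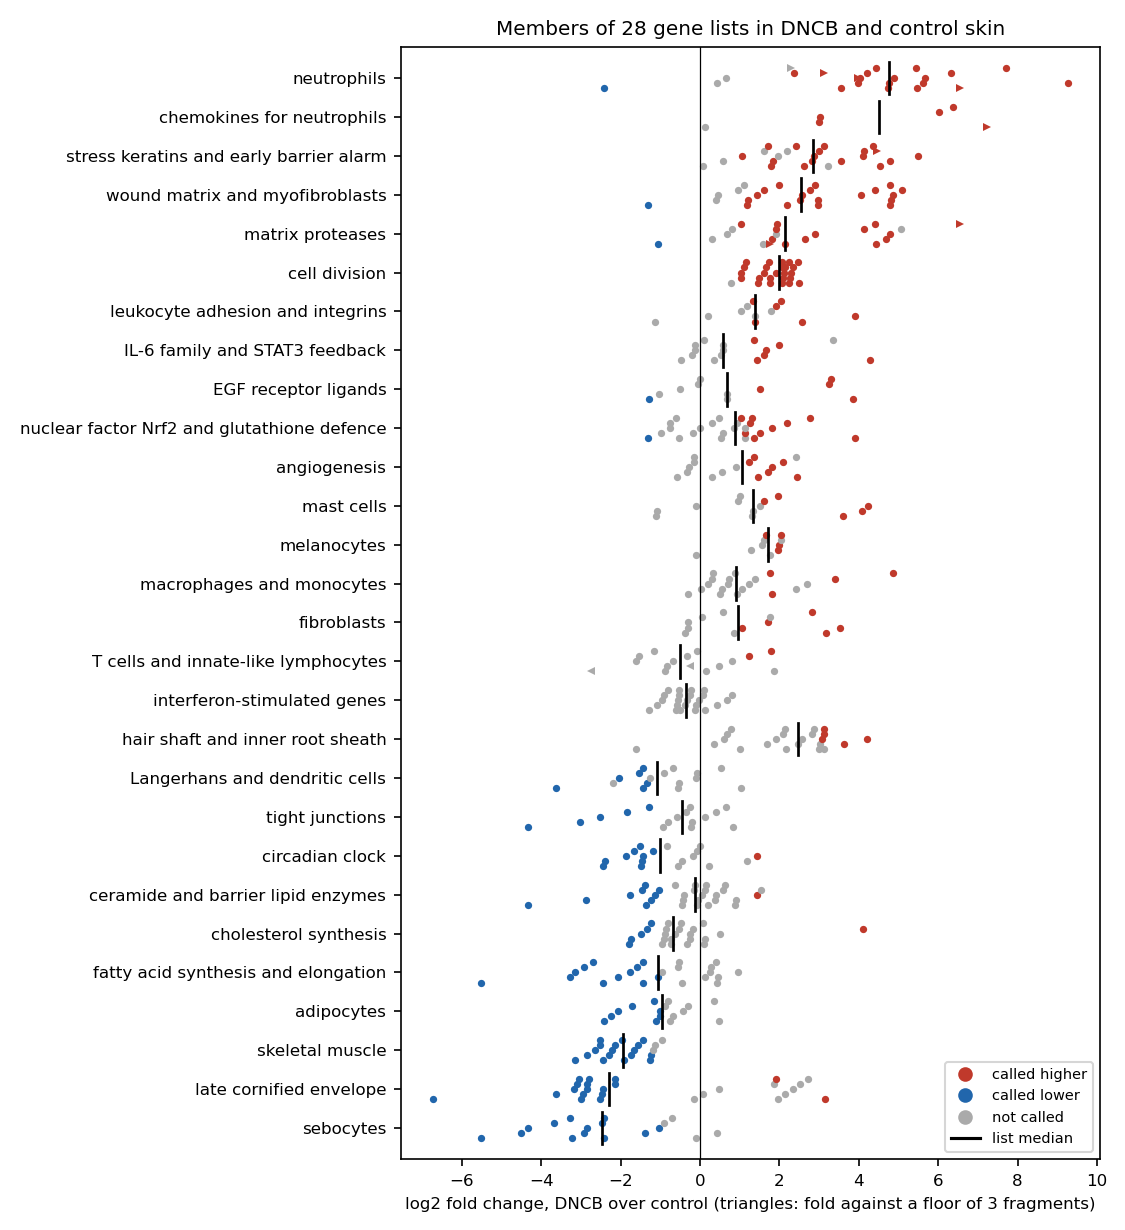
Log2 fold change (DNCB over control, horizontal axis) of every tested member of 28 gene lists; red points were called higher, blue points called lower and grey points neither, black bars are list medians, and triangles show genes with a group at or under 3 fragments in each library, placed at the fold against that floor. Neutrophil genes, their chemokines, stress keratins, wound matrix and cell division lie to the right, and sebocyte, late cornified envelope, muscle and fatty acid genes to the left.

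The plot of gene lists orders the programmes by their direction. The 12 genes with the largest rise that passed the filters on level are described first. Retnlg, a resistin-like protein of neutrophils, was listed at 0, 0 and 0.36 FPKM in control replicates 1 to 3 and at 103, 96.5 and 49.2 FPKM in DNCB replicates 1 to 3 (adjusted p = 0.00134). Stfa2l1, a stefin, which inhibits cysteine proteases, was at 0.806, 0 and 0.322 FPKM against 99, 92.5 and 86 FPKM (adjusted p = 0.00733). Another stefin-like gene, Cstdc4, had means of 0.198 ± 0.249 and 24.3 ± 3.82 FPKM (SD, n = 3, adjusted p = 0.00673). Cyp4f18, a neutrophil cytochrome P450, went from a mean of 0.297 to 45.5 FPKM. Control and DNCB libraries did not overlap for any of the 12 genes, which the choice of these genes required. Over all genes tested, every DNCB library was above every control library for 31.7%, and below for 16.1%.

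Spink12, a serine protease inhibitor, was at 0 in all control libraries and at 25.1, 5.73 and 9.56 FPKM in the DNCB libraries, at least 72-fold higher against a floor of 3 fragments per library (adjusted p = 0.000679). Mrgpra2b, a receptor of the Mas-related family, was likewise at 0 in all controls and at 9.16, 11 and 6.98 FPKM, at least 64.1-fold higher (adjusted p = 0.0048), and its neighbour and close copy Mrgpra2a was at means of 0.0555 and 6.44 FPKM. Serpinb3d, Tmprss11b and Reg1, respectively a serpin, a membrane serine protease and a secreted lectin, had control means of at most 0.058 FPKM and DNCB means of 6.43, 5.52 and 12.2 FPKM. Reg1 lost its call without control replicate 2 (adjusted p = 0.0505) and with DESeq2 (adjusted p = 0.0528). Mrgpra2a also lost its call with DESeq2 (adjusted p = 0.122).

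Keratin 77 led the genes that fell. Krt77, a keratin of the suprabasal epidermis and sweat ducts (chr15:101858731-101869705), was at 782, 694 and 1030 FPKM in the control libraries and at 1.45, 0.162 and 0.636 FPKM in the DNCB libraries (log2FC -10.30 ± 1.07, adjusted p = 0.000481). Adh6a, an alcohol dehydrogenase, gave the smallest adjusted p of all genes (1.4e-06), with 23.6, 26.6 and 33.8 FPKM against 0.477, 0.368 and 0.394 FPKM (log2FC -6.25 ± 0.25). Calcb, which encodes the second form of the neuropeptide CGRP, was at 5.17, 7.31 and 8.14 FPKM against 0.0972, 0.0743 and 0.135 FPKM (log2FC -6.18 ± 0.60, adjusted p = 0.000431). Each of these 3 genes was low in every DNCB library.

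Others among the 12 largest falls were secreted or lipid-handling products. Fcgbp, a mucus-associated protein, fell from a mean of 8.39 to 0.0887 FPKM, Serpina3b from 24.4 to 0.735 FPKM and Wfdc3 from 9.5 to 0.263 FPKM. Retnla, a resistin-like protein of alternatively activated macrophages and fat, stood at 114, 182 and 507 FPKM in the controls and at 10.4, 11.3 and 5.43 FPKM after DNCB (log2FC -5.03 ± 0.86, adjusted p = 0.00229), so Retnla and Retnlg, of 1 gene family, moved in opposite directions. The remaining genes were the esterase-like Aadacl3 (5.55 to 0.0952 FPKM), the pseudogene Mrgprb11-ps (11.7 to 0.0578 FPKM), and Lce1m, Scd3 and Krt2, which are described with their groups.

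Of 23 tested neutrophil genes, 19 were higher and 1 was lower, with a median log2FC of 4.76 (4.44 with genes at the floor placed at their bound), against 0.022 over all genes. Ly6g, the surface antigen that defines mouse neutrophils, was at 0 in every control library and at 2.67, 4.93 and 1.83 FPKM after DNCB, at least 15.8-fold higher (adjusted p = 0.00361). With DESeq2 Ly6g lost its call (adjusted p = 0.0554). Mmp8, the neutrophil collagenase, rose from at most 0.0445 FPKM to 6.93, 6.94 and 8 FPKM (adjusted p = 0.0059). S100a8 and S100a9, whose proteins pair as calprotectin and sequester metal ions, were at 42.7 to 67.8 and 75 to 134 FPKM in the controls and at 788 to 1050 and 1570 to 2240 FPKM in the DNCB group (log2FC 3.98 ± 0.60 and 4.20 ± 0.74). Keratinocytes also express this pair.

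Genes for the receptors by which neutrophils leave the marrow and find tissue rose as well. Csf3r, the receptor of granulocyte colony-stimulating factor, was at 1.59, 0.566 and 2.47 FPKM against 26.7, 25.8 and 31.5 FPKM (log2FC 4.02 ± 0.62, adjusted p = 0.00153). Cxcr2, the receptor of the chemokines described next, was at 1.49, 2.14 and 2.2 FPKM against 11, 10.3 and 12.7 FPKM (log2FC 2.36 ± 0.20, adjusted p = 0.00034). Mpo, a granule enzyme made by marrow precursors, was the member that fell, at means of 0.59 and 0.12 FPKM, and Elane, another such enzyme, was too low to be tested. Leaving out DNCB replicate 1 gave the lowest count, 14 higher and 0 lower.

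Of 6 chemokines that attract neutrophils, 5 were higher and 0 lower (median log2FC 4.51). Cxcl5 was at 0, 0.0535 and 0 FPKM in the controls and at 14.6, 6.26 and 24.7 FPKM in the DNCB group (adjusted p = 0.00125). Cxcl2 was at 4.43, 0.297 and 1.73 FPKM against 277, 183 and 158 FPKM (log2FC 6.38 ± 1.60, adjusted p = 0.0144), the highest level of the 6. Cxcl3 was at 0.523, 0.00666 and 0.0802 FPKM against 21.3, 12.6 and 12.1 FPKM (log2FC 6.01 ± 1.68, adjusted p = 0.0237), and Cxcl1 at means of 0.973 and 8.84 FPKM (log2FC 2.99 ± 0.83, adjusted p = 0.0223). The groups did not overlap for any of these, but the spread between control libraries was wide. Cxcl2 lost its call without control replicate 3 (adjusted p = 0.053), Cxcl3 without DNCB replicate 1, control replicate 2 or control replicate 3 (0.0631 to 0.0759), and Cxcl1 without DNCB replicate 1, DNCB replicate 3, control replicate 2 or control replicate 3 (0.05 to 0.08). The count of 5 became 2 without DNCB replicate 1, 3 without DNCB replicate 3, 3 without control replicate 2 and 1 without control replicate 3.

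Cxcl1, Cxcl2 and Cxcl3 lie near each other on chromosome 5, and their promoters are shown because the 3 genes moved together and share 1 sequence element. The 250 bases before each RefSeq start site (GRCm38.p6, 5′ to 3′) are given in lower case, with matches to GGGA, 2 unspecified bases and TTCC, a form of the site bound by NF-κB, in capitals. Both strands were searched.
Cxcl1 (chr5:90890995-90891244, plus strand): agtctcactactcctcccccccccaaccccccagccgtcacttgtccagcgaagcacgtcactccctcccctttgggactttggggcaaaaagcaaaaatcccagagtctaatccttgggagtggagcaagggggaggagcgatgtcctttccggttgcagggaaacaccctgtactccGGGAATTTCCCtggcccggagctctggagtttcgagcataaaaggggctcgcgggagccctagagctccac
Cxcl2 (chr5:90903649-90903898, plus strand): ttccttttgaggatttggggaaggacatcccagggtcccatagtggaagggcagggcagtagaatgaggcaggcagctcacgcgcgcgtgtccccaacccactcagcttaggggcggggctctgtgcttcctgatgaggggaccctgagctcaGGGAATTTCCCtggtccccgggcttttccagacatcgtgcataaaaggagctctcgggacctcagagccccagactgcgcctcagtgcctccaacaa
Cxcl3 (chr5:90785851-90786100, plus strand): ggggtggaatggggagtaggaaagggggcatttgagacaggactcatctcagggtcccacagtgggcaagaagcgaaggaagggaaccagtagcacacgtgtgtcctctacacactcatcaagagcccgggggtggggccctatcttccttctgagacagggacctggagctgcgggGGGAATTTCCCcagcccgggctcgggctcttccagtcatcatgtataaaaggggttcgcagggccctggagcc
In each of the 3 promoters the matches on the 2 strands overlap in the same run, GGGAATTTCCC, which begins 71, 97 and 73 bases before the start. The motif occurred in 1.21% of all 32851 mouse promoters in the table, in 1.23% of the 16688 promoters of genes tested, in 1.73% of 1213 promoters of genes called higher and in 1.16% of 1467 promoters of genes called lower. These matches describe the letters only.

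Chemokines for monocytes and T cells moved less uniformly, with 3 of 23 higher and 1 lower. Ccl4 was at 1.3, 0.315 and 1.49 FPKM in the controls and at 170, 92.8 and 89.8 FPKM after DNCB (log2FC 6.64 ± 1.00, adjusted p = 0.00137). Ccl3, a related chemokine, was at 1.51, 1.09 and 0.596 FPKM against 136, 98.1 and 82.5 FPKM (log2FC 6.42 ± 1.24, adjusted p = 0.00409). Ccl7 rose from 2.97, 2.39 and 2.69 FPKM to 19.9, 9.92 and 12.8 FPKM (log2FC 2.21 ± 0.57, adjusted p = 0.0162), a call lost without DNCB replicate 1 or any 1 of the 3 control libraries (adjusted p 0.0504 to 0.0602). Ccl17, a chemokine for type 2 T cells, stood at 0.405 ± 0.368 and 0.0778 ± 0.0731 FPKM (SD, n = 3, adjusted p = 0.321).

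Several cytokines rose, and the cells that made them were not identified. Tnf was at 1.47, 0.391 and 0.817 FPKM against 52.5, 24.8 and 29.1 FPKM (log2FC 5.12 ± 0.78, adjusted p = 0.00146). Il33, an alarmin released by damaged barrier cells, was at 6.2, 5.55 and 6.33 FPKM against 36.4, 28.5 and 41.9 FPKM (log2FC 2.38 ± 0.59, adjusted p = 0.0133; adjusted p = 0.0502 without control replicate 2), and Tgfb1 at means of 3.63 and 10.2 FPKM (adjusted p = 0.000895). In this list of 20 cytokines 8 were too low to be tested, 4 of the other 12 were higher and 1 was lower. Without control replicate 2 the count was 2 higher. Il17a and Tslp overlapped between the groups (adjusted p = 0.876 and 0.802), and Il23a was at means of 0.118 and 1.53 FPKM (adjusted p = 0.115). For Il23a the adjusted p was below 0.05 in 4 alternatives.

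The IL-20 subfamily, which signals to keratinocytes, was split. Il24 was at 0 in every control library and at 3.76, 2.35 and 2.83 FPKM after DNCB, at least 22-fold higher (adjusted p = 0.0314). Il19 was at 0, 0.17 and 0.328 FPKM against 4.66, 1.96 and 4.89 FPKM (log2FC 4.33 ± 1.28, adjusted p = 0.0369), while Il20 was at 0.729, 1.97 and 0.758 FPKM against 0.172, 0.0935 and 0 FPKM (log2FC -3.82 ± 1.12, adjusted p = 0.0284). These 3 calls were fragile: Il24 and Il19 lost theirs when any 1 of the 6 libraries was left out (adjusted p 0.0628 to 0.0756 and 0.0545 to 0.1), and Il20 without DNCB replicate 2, DNCB replicate 3 or control replicate 2 (0.0551 to 0.081).

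In the IL-6 family and its feedback genes, 6 of 16 were higher and 0 lower. Osm, encoding oncostatin M, was at 0.611, 0.271 and 0.39 FPKM against 13.9, 8.33 and 6.03 FPKM (log2FC 4.27 ± 0.70, adjusted p = 0.00195). The cytokine Clcf1 and the nuclear IκB protein Bcl3 rose from means of 2.15 and 5.46 FPKM to 9.71 and 19.7 FPKM, and Socs3, which is induced by STAT3 and restrains it, from 13.9 to 42.7 FPKM (log2FC 1.43 ± 0.33, adjusted p = 0.00948). Il6 itself was at means of 0.0651 and 0.82 FPKM (adjusted p = 0.0745), with an adjusted p below 0.05 in 5 alternatives.

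Of the immediate early genes 3 of 21 were higher, and the count was 5 without DNCB replicate 2 and 6 without DNCB replicate 3. Fosl1, an AP-1 subunit, was at 0.37, 0.27 and 0.316 FPKM against 5.18, 2.24 and 2.95 FPKM (log2FC 3.22 ± 0.69, adjusted p = 0.00684). Junb, its partner, and the survival gene Ier3 rose from means of 58.5 and 38 FPKM to 170 and 131 FPKM (log2FC 1.36 ± 0.27 and 1.60 ± 0.30). Ptgs2, the inducible cyclooxygenase, was at 0.624, 0.316 and 0.65 FPKM against 28.2, 17 and 13.1 FPKM (log2FC 5.02 ± 0.55, adjusted p = 0.000514). Among 19 eicosanoid genes 3 were higher and 6 lower. The phospholipase Pla2g4e rose (log2FC 1.39 ± 0.18), and the epidermal lipoxygenase Alox12e fell from 41.6, 34 and 48.8 FPKM to 12, 7.86 and 5.34 FPKM (log2FC -2.48 ± 0.39, adjusted p = 0.00167).

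Among genes of leukocyte adhesion, 6 of 12 members were higher and 0 lower. The endothelial selectins Selp and Sele rose from means of 0.602 and 0.651 FPKM to 4.1 and 3.06 FPKM (log2FC 2.56 ± 0.53 and 2.04 ± 0.56), and Icam1 from 4.63 to 13.8 FPKM (log2FC 1.39 ± 0.25, adjusted p = 0.00289). Sele lost its call without DNCB replicate 1, DNCB replicate 3, control replicate 2 or control replicate 3 (adjusted p 0.0563 to 0.0822). Of 10 general blood endothelial genes only Emcn was called, at means of 1.32 and 3.19 FPKM, and it lost the call in 5 of the 6 fits that left out a library, all but that without DNCB replicate 2 (adjusted p 0.0672 to 0.135).

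**Figure D2:**
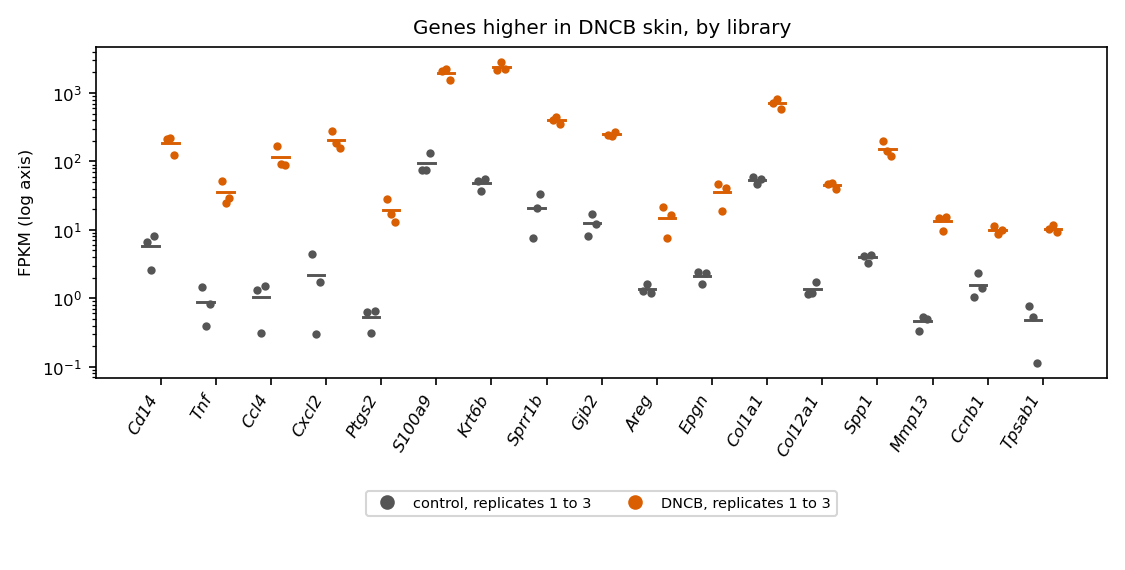
FPKM (log axis) of 17 genes higher in DNCB skin; points are the 3 control (grey) and 3 DNCB (orange) libraries in replicate order and bars are group means. For every gene the lowest DNCB library lies above the highest control library, as for Cd14 at 124 and 8.05 FPKM.

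The plot of raised genes by library holds genes chosen among those called, so the gap between groups follows from their choice. Among macrophage and monocyte genes, 4 of 20 were higher and 0 lower. Cd14, the co-receptor for lipopolysaccharide, was at 6.63, 2.56 and 8.05 FPKM against 216, 217 and 124 FPKM (log2FC 4.85 ± 0.60, adjusted p = 0.000724), and Arg1, an arginase of macrophages that epidermis also makes, at 9.4, 8.2 and 9.21 FPKM against 39.1, 41.1 and 26.5 FPKM (log2FC 1.81 ± 0.21, adjusted p = 0.000627). Nos2, the inducible nitric oxide synthase, was at means of 0.281 and 3.37 FPKM, a call lost without DNCB replicate 1, control replicate 1 or control replicate 2 (adjusted p 0.0509 to 0.0566). The lineage genes Adgre1 and Cd68 were not called (adjusted p = 0.609 and 0.136), although that of Cd68 was below 0.05 in 2 alternatives. Control replicate 3 stood apart in this list, with a summed level of 971 FPKM beside 268 and 292 FPKM in the other 2 controls and 1130 to 1220 FPKM in the DNCB libraries.

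Antimicrobial genes were raised in 8 of 18 cases and lowered in 2. Saa3, an acute-phase protein, was at 2.68, 1.21 and 2.51 FPKM against 55.7, 55.4 and 102 FPKM (log2FC 4.87 ± 0.80, adjusted p = 0.00197), and Lcn2, which binds bacterial siderophores, at 5.48, 2.99 and 4.18 FPKM against 25.9, 26.9 and 26.2 FPKM (log2FC 2.45 ± 0.27, adjusted p = 0.000514). Pglyrp1 rose from a mean of 0.265 to 2.7 FPKM, and Reg3g from 0.0166 to 1.58 FPKM, the latter a call lost without DNCB replicate 3 or any 1 control library (adjusted p 0.0565 to 0.0653). The β-defensin Defb6 fell from 114, 130 and 135 FPKM to 54.1, 16.2 and 36 FPKM (log2FC -2.02 ± 0.46, adjusted p = 0.0087), while Defb4 was at 0 in all controls and at 0, 0.649 and 0.205 FPKM in the DNCB libraries (adjusted p = 0.0967). The count of 8 became 5 without control replicate 1 and 5 without control replicate 3, and that of 2 lowered genes became 1 without any 1 DNCB library or control replicate 3.

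Itch receptors gave a small and divided group, with 3 of 19 higher and 1 lower. Bdkrb2, the constitutive bradykinin receptor, was at 0.693, 0.942 and 1.16 FPKM against 5.73, 5.32 and 5.57 FPKM (log2FC 2.39 ± 0.43, adjusted p = 0.00312). Bdkrb1, the inducible one, was at means of 0.23 and 2.02 FPKM (log2FC 2.89 ± 0.86, adjusted p = 0.0308), a call lost without DNCB replicate 1, DNCB replicate 3, control replicate 2 or control replicate 3 (adjusted p 0.0694 to 0.0887). Il31ra, a subunit of the receptor for the itch cytokine IL-31, fell from 3.58, 1.49 and 4.33 FPKM to 0.35, 0.139 and 0.479 FPKM (log2FC -3.44 ± 0.78, adjusted p = 0.00879).

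In the epidermis the stress keratins rose together. Of 24 tested genes of the keratinocyte alarm list, 18 were higher and 0 lower (median log2FC 2.84). Krt6b was at 51.5, 36.7 and 54.8 FPKM against 2130, 2830 and 2270 FPKM (log2FC 5.48 ± 0.91, adjusted p = 0.00201). Krt6a and Krt16, which with Krt6b build the filaments of wounded and hyperproliferative epidermis, went from means of 86.6 and 99.6 FPKM to 2270 and 2310 FPKM, and Krt17 from 287 to 1060 FPKM. Slpi, an inhibitor of neutrophil elastase, was at 2.1, 1.1 and 1.46 FPKM against 51.9, 42.8 and 52.3 FPKM (log2FC 4.78 ± 0.69, adjusted p = 0.00119). Gjb2, which encodes the gap junction protein connexin 26, was at 8.23, 17.3 and 12.3 FPKM against 244, 237 and 272 FPKM (log2FC 4.13 ± 0.45, adjusted p = 0.000514).

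Basal keratinocyte genes diverged. Krt14 and Krt5, the keratin pair of the basal layer, rose from 737, 745 and 1200 FPKM to 6320, 7190 and 5530 FPKM (log2FC 2.65 ± 0.39, adjusted p = 0.00127) and from means of 1060 to 2900 FPKM (log2FC 1.27 ± 0.22, adjusted p = 0.00278). Krt15, a keratin of quiescent basal and follicle stem cells, fell from 674, 493 and 420 FPKM to 242, 179 and 139 FPKM (log2FC -1.69 ± 0.37, adjusted p = 0.00726). Of 10 genes of this list 3 were higher and 1 lower.

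Of 11 genes of the epidermal growth factor receptor system 4 were higher and 1, Egf itself, was lower. The ligands Epgn and Areg were at 2.45, 1.59 and 2.33 FPKM against 46.8, 18.7 and 40.3 FPKM (log2FC 3.86 ± 0.69, adjusted p = 0.00285) and at 1.28, 1.62 and 1.21 FPKM against 21.4, 7.48 and 16.4 FPKM (log2FC 3.26 ± 0.47, adjusted p = 0.00118), and Hbegf rose from a mean of 2.05 to 6.67 FPKM. DNCB replicate 2 was the lowest of its group for all 3 ligands. In the cell division list 25 of 26 genes were higher and 0 lower (median log2FC 1.99), under a narrow range of 1.02 to 2.50 among those called. The mitotic genes Cenpe, Ccnb1 and Plk1 rose from means of 0.616, 1.58 and 2.53 FPKM to 3.99, 9.96 and 14.6 FPKM (log2FC 2.50 ± 0.38, 2.46 ± 0.33 and 2.34 ± 0.42). Pcna, of the replication fork, stayed under the fold threshold (log2FC 0.77 ± 0.17, adjusted p = 0.00868).

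The epidermal differentiation complex, a cluster of barrier genes on chromosome 3, held genes of both directions side by side. Its 84 tested genes run from S100a1 to S100a10 over 3054 kb (90511034 to 93564643); 17 were higher and 23 lower. The small proline-rich Sprr genes, cross-linked into the envelope of stressed keratinocytes, were higher in 10 of 15 cases and lower in 0 (median log2FC 2.63), within 285 kb. The 15 genes of the late cornified envelope families Lce1 and Lce6, which serve the normal stratum corneum, were all lower (median log2FC -2.84), within 399 kb. The 6 Lce3 genes, which are known for their induction in injured epidermis, lie between Lce1l and Lce1m; all 6 had positive log2FC values (median 2.23), and none passed the test in the fit over all 4 groups. Lce3d, for example, was at 3.4, 3.4 and 3.3 FPKM against 20.2, 25.7 and 20.2 FPKM (adjusted p = 0.0753). This call depended on the fit: with the 6 libraries compared fitted alone, the adjusted p was 0.000677 for Lce3d and 0.012 for Lce3e, and both also passed with limma and without the scivMSC group, which received stem cells by both routes. The list of 26 late cornified envelope genes had 2 higher in the fit over all groups and 8 with the 6 libraries alone, and 15 lower in both.

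**Figure D3:**
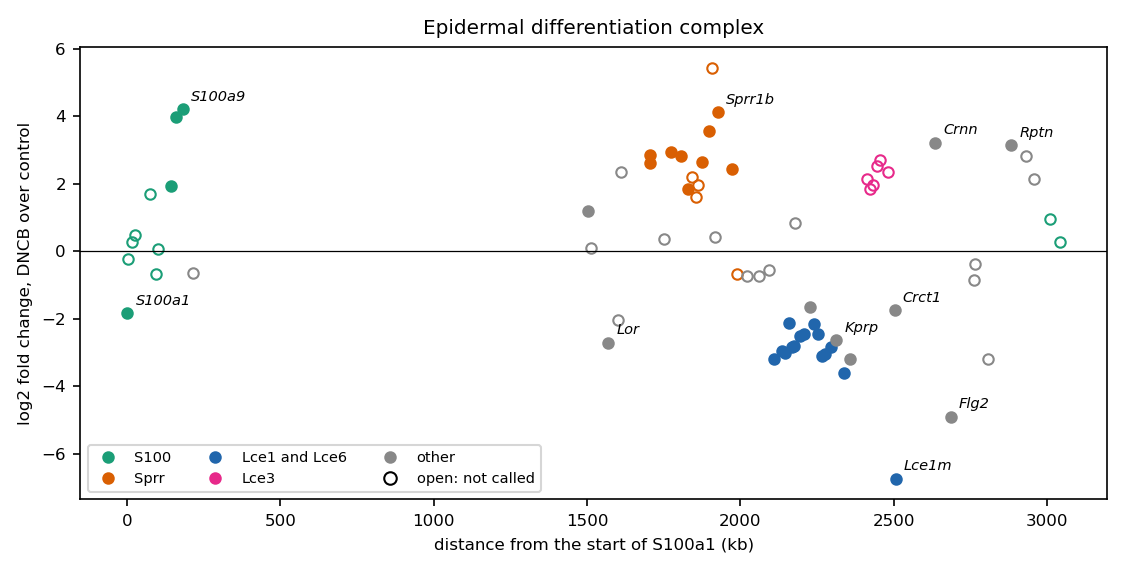
Log2 fold change (DNCB over control) of genes of the epidermal differentiation complex against distance in kb from the start of S100a1, for genes that averaged 1 FPKM or more in either group and were above 0 in both; filled points were called and open points were not, and colour gives the gene family. Sprr genes lie above 0 except Sprr4, Lce1 and Lce6 genes lie at -2.14 or lower, and Lce3 genes lie between them at 1.85 to 2.71.

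The plot along the complex was drawn after its values were seen. Sprr1b, beside the Sprr2 genes, was at 7.66, 21 and 33.2 FPKM in the controls and at 405, 440 and 355 FPKM after DNCB (log2FC 4.11 ± 0.79, adjusted p = 0.00401). Lce1m was at 175, 221 and 325 FPKM against 3.63, 1.45 and 2.52 FPKM (log2FC -6.74 ± 0.60, adjusted p = 0.00034), the largest fall of its family, and Lce1l and Lce6a fell from means of 163 and 65.3 FPKM to 14.9 and 8.02 FPKM. Kprp and Crct1, in the same stretch, fell from means of 116 and 266 FPKM to 20.9 and 89.4 FPKM, whereas Crnn and Rptn, further along, rose from 0.571 and 9.72 FPKM to 6.16 and 97.3 FPKM. All DNCB libraries lay below all controls for Lce1m, Lce1l, Lce6a and Kprp. Sprr2 and Lce1 copies are similar in sequence, so reads may have been shared among them.

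The promoter of Sprr1b (250 bases before the RefSeq start, GRCm38.p6, 5′ to 3′) is shown with that of Mmp13, described below. Both genes rose over 16-fold, and each holds 1 match, in capitals, to TGANTCA. This is a loose form of the AP-1 element that allows any base at its centre, which is A in Sprr1b and C in Mmp13.
Sprr1b (chr3:92438780-92439029, minus strand): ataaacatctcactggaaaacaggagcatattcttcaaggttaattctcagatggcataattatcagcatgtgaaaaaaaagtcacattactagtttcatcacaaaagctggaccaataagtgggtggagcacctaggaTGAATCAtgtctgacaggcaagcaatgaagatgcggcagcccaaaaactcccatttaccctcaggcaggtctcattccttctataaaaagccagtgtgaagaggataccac
Mmp13 (chr9:7272264-7272513, plus strand): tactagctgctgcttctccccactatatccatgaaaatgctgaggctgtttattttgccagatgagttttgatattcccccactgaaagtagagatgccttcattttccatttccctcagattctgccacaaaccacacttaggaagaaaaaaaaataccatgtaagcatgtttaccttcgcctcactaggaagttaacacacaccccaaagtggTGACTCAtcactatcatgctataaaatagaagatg
The match begins 111 bases before the start in Sprr1b and 35 bases before it in Mmp13. On either strand, 5.47% of promoters of the genes tested held the motif, with 8.33% among genes called higher, 7.84% among genes called lower and 6.75% among all promoters.

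Genes for proteins of the normal cornified layer fell in part. Lor, encoding loricrin, the main envelope protein, was at 1170, 1910 and 2380 FPKM against 291, 370 and 277 FPKM (log2FC -2.71 ± 0.36, adjusted p = 0.000948). Flg2, encoding filaggrin 2, was at 14, 38.3 and 84 FPKM against 1.74, 1.94 and 1.36 FPKM (log2FC -4.91 ± 0.75, adjusted p = 0.00146). Flg was not called, at 13.9, 57.9 and 123 FPKM against 43.3, 43 and 32.9 FPKM (adjusted p = 0.274), with control libraries on both sides of the DNCB libraries. Krt2 fell from 28.7, 11.6 and 6.34 FPKM to 0.417, 0.74 and 0.429 FPKM (log2FC -5.07 ± 1.33, adjusted p = 0.0179), a call lost without any 1 of the DNCB libraries (adjusted p 0.0513 to 0.0676). The main suprabasal keratins Krt1 and Krt10 overlapped between the groups (adjusted p = 0.224 and 0.684). In all, 4 of 15 suprabasal genes were lower and 0 higher, and without control replicate 3 the count was 2 higher and 4 lower.

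Genes for proteases and junctions of the upper epidermis also moved. Of 21 epidermal proteases and inhibitors 6 were higher and 1 lower. The kallikrein Klk12, a desquamation protease, rose from a mean of 0.295 to 2.98 FPKM (log2FC 3.16 ± 0.78, adjusted p = 0.0129), and Serpinb7, a serpin of the stratum corneum, fell from 23.4, 30.1 and 38.9 FPKM to 3.95, 4.26 and 3.68 FPKM (log2FC -3.13 ± 0.26, adjusted p = 0.00034). Among 16 tight junction genes 5 were lower and 0 higher. The claudins Cldn23 and Cldn3 were at 5.27, 5.35 and 7.56 FPKM against 0.272, 0.376 and 0.362 FPKM (log2FC -4.33 ± 0.32, adjusted p = 0.000288) and at 5.63, 4.51 and 2.81 FPKM against 0.641, 0.38 and 0.795 FPKM (log2FC -3.02 ± 0.49, adjusted p = 0.00181). The scaffold genes Cgn and Tjp3 fell from means of 9.09 and 10.6 FPKM to 1.79 and 3.34 FPKM. Without DNCB replicate 1 the count of lowered proteases and inhibitors was 4, without control replicate 1 it was 3 and without control replicate 2 it was 2.

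**Figure D4:**
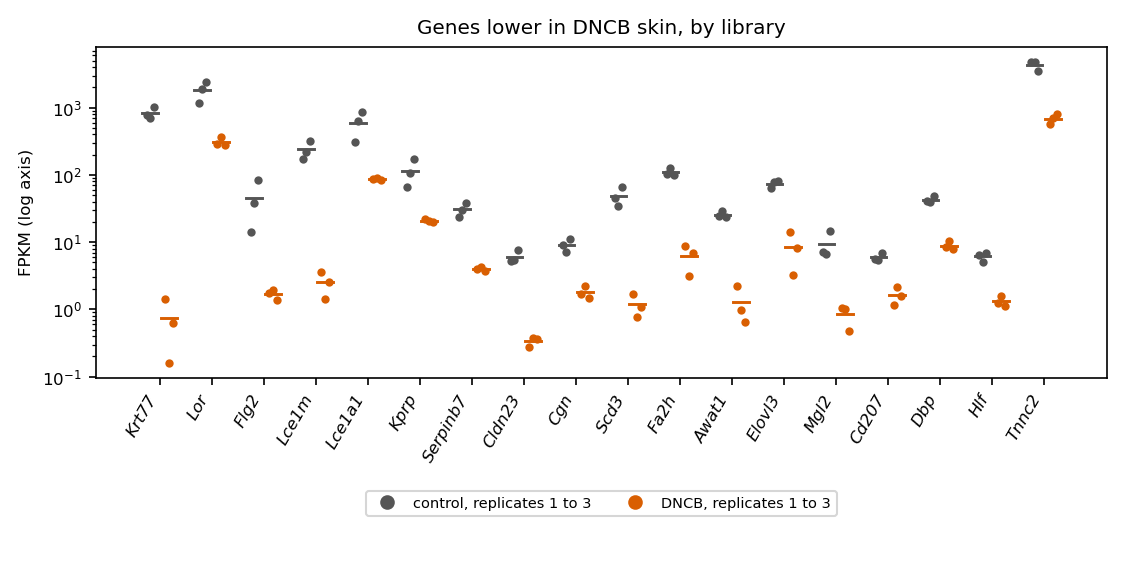
FPKM (log axis) of 18 genes lower in DNCB skin; points are the 3 control (grey) and 3 DNCB (orange) libraries in replicate order and bars are group means. No DNCB library reaches the lowest control library, which for Krt77 lies at 694 FPKM beside a highest DNCB library of 1.45 FPKM. The genes were chosen among those called lower, so the gap follows from their choice. Over all genes tested, every DNCB library was below every control library for 16.1%.

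Lipid genes formed a broad lowered programme, as the plot of lowered genes shows for 4 of them. Of 17 tested sebocyte genes, markers of the oil-secreting gland of the follicle, 13 were lower and 0 higher (median log2FC -2.47). Scd3, a sebaceous stearoyl-CoA desaturase, was at 45.5, 34 and 66.3 FPKM against 1.68, 0.784 and 1.09 FPKM (log2FC -5.53 ± 0.68, adjusted p = 0.000714). Awat1, which makes wax esters, was at 24.1, 28.9 and 23.6 FPKM against 2.22, 0.975 and 0.641 FPKM (log2FC -4.51 ± 0.56, adjusted p = 0.000749), and Mc5r, the melanocortin receptor of the gland, at means of 5.48 and 1.12 FPKM. The whole list summed to 940 to 1120 FPKM in the controls and 230 to 264 FPKM in the DNCB group.

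Enzymes that these glands share with other cells fell too. In fatty acid synthesis and elongation 12 of 23 genes were lower and 0 higher (median log2FC -1.06). The elongases Elovl3 and Elovl6 fell from 63.4, 79.1 and 80.6 FPKM to 14.4, 3.2 and 8.27 FPKM (log2FC -3.29 ± 0.55, adjusted p = 0.00203) and from means of 63.9 to 8.15 FPKM (log2FC -3.15 ± 0.42, adjusted p = 0.000951), Scd1 from 480 to 71.8 FPKM, and Fasn, the fatty acid synthase, from 44.2 to 18.4 FPKM. The sebocyte list and this list share Scd1, Scd3 and Elovl3 among the genes called, and sebocyte markers fell in the same libraries; their part in the fall of these enzymes was not tested.

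Of 29 genes of ceramide and barrier lipid synthesis 9 were lower and 1 higher. Fa2h, which hydroxylates the fatty acids of ceramides, fell from 103, 128 and 99.8 FPKM to 8.83, 3.11 and 6.84 FPKM (log2FC -4.33 ± 0.51, adjusted p = 0.000611). Cers4, a ceramide synthase, and Elovl4, which makes the very long acyl chains of the barrier, fell from means of 16.7 and 264 FPKM to 2.59 and 88.4 FPKM (log2FC -2.87 ± 0.43 and -1.76 ± 0.33). The list median, -0.14, was 0.04 with library size alone, so the sign of the median depends on the scaling. Among 24 cholesterol genes 5 were lower and 1 higher. Msmo1, a sterol oxidase of the pathway, fell from a mean of 40.3 to 13.2 FPKM.

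In the dermis the matrix genes of wound repair rose. Of 24 genes of the wound matrix and myofibroblast list 19 were higher and 1 lower (median log2FC 2.55). Col12a1, a fibril-associated collagen, was at 1.15, 1.2 and 1.73 FPKM against 46.9, 47.7 and 39.9 FPKM (log2FC 4.87 ± 0.35, adjusted p = 0.000288). Spp1, encoding osteopontin, was at 4.21, 3.29 and 4.36 FPKM against 197, 143 and 119 FPKM (log2FC 5.09 ± 0.66, adjusted p = 0.000857), and Cthrc1, a secreted protein of activated fibroblasts, at 1.09, 1.34 and 0.672 FPKM against 33.4, 40.2 and 27.1 FPKM (log2FC 4.82 ± 0.59, adjusted p = 0.000706). Tnc, encoding tenascin C, and Lox, which cross-links collagen, rose from means of 2.39 and 4.38 FPKM to 75.2 and 37.1 FPKM. Acta2, the smooth muscle actin of myofibroblasts, rose less, from 21 to 54.4 FPKM (log2FC 1.19 ± 0.24). Ccn2, the matricellular protein CTGF, was the member that fell (log2FC -1.31 ± 0.34, adjusted p = 0.0172; 0.0646 without DNCB replicate 2).

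The fibrillar collagens rose more than the general fibroblast genes around them in value. Col1a1 was at 58.2, 46.6 and 56.1 FPKM against 710, 810 and 584 FPKM (log2FC 3.53 ± 0.66, adjusted p = 0.00346), and Col3a1 and Col1a2 rose from means of 73.9 and 44.9 FPKM to 744 and 355 FPKM (log2FC 3.16 ± 0.65 and 2.81 ± 0.60). Of the 12 fibroblast genes 5 were higher and 0 lower, so the rise was not confined to these collagens. The list median log2FC was 0.96. All DNCB libraries lay above all controls for 8 members and below for 0, beside 31.7% and 16.1% of all genes tested. The count of 5 was 3 without DNCB replicate 1, without control replicate 1 or without control replicate 2. Dcn, Dpt and Pi16, markers of resting fibroblasts, had log2FC values of 0.58, 0.04 and -0.37 and were not called.

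Matrix proteases rose beside the collagens, with 14 of 21 higher and 1 lower. Mmp13, an interstitial collagenase whose promoter is printed above, was at 0.333, 0.541 and 0.5 FPKM against 14.9, 9.67 and 15.6 FPKM (log2FC 4.68 ± 0.90, adjusted p = 0.00406). Adamts4, a proteoglycan-cleaving protease, was at 0.118, 0.483 and 0.112 FPKM against 7.16, 8.27 and 7.32 FPKM (log2FC 4.78 ± 0.73, adjusted p = 0.00146). Mmp9, a gelatinase of neutrophils and keratinocytes, and Timp1, an inhibitor of these enzymes, rose from means of 1.16 and 2.44 FPKM to 28.6 and 59.4 FPKM.

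Genes of the vessel growth list followed in part, with 7 of 16 higher and 0 lower. The cells that expressed them were not identified, and some members, such as Cxcr4, are not particular to vessels. Cxcr4, the chemokine receptor, was at 3.31, 3.31 and 4.05 FPKM against 26.7, 21.2 and 17.2 FPKM (log2FC 2.43 ± 0.33, adjusted p = 0.000951), and Aplnr, the apelin receptor of endothelium, at 3.85, 2.35 and 2.65 FPKM against 14.1, 12.9 and 15.9 FPKM (log2FC 2.09 ± 0.27, adjusted p = 0.000827). Angptl4 rose from a mean of 5.92 to 23.6 FPKM, a call lost without control replicate 3 (adjusted p = 0.06), and Vegfa was not called (log2FC -0.32 ± 0.13, adjusted p = 0.0955). The count of 7 became 3 without DNCB replicate 1, DNCB replicate 3 or control replicate 3, and 4 without control replicate 1 or control replicate 2. Pdpn, a glycoprotein of lymphatic vessels that activated keratinocytes and fibroblasts also carry, was the only called member of 7 lymphatic genes, at 5.69, 6.13 and 8.48 FPKM against 25.2, 20.6 and 29.4 FPKM (log2FC 1.71 ± 0.28, adjusted p = 0.00194).

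Sugar uptake and glycolysis split by isoform. The glucose transporters Slc2a3 and Slc2a1 rose from 0.459, 0.241 and 0.329 FPKM to 7.11, 3.82 and 2.74 FPKM (log2FC 3.54 ± 0.43, adjusted p = 0.000685) and from means of 15.7 to 78.1 FPKM (log2FC 2.15 ± 0.42, adjusted p = 0.00439), and Hif1a, the oxygen-regulated transcription factor, from 11.1 to 42 FPKM. Slc2a4, the insulin-responsive transporter of muscle and fat, and Pfkm, the phosphofructokinase of muscle, fell from 72.9, 64.4 and 53.6 FPKM to 13.8, 17 and 21 FPKM (log2FC -2.07 ± 0.31, adjusted p = 0.00131) and from means of 438 to 128 FPKM (log2FC -1.97 ± 0.30, adjusted p = 0.00153). Of 26 genes of this list 6 were higher and 3 lower, the latter 5 without control replicate 3. Muscle markers, summed, were at 24500 to 34600 FPKM in the controls and 6530 to 8980 FPKM in the DNCB group, and their part in the falls was not tested.

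Defence against electrophiles, the class of chemical to which DNCB belongs, was raised in 10 of 26 genes and lowered in 1. Slc7a11, which imports cystine for glutathione synthesis, was at 0.221, 0.214 and 0.317 FPKM against 4.51, 4.6 and 3.53 FPKM (log2FC 3.89 ± 0.46, adjusted p = 0.000653). Gsto1, a glutathione transferase, was at 11, 14.7 and 15 FPKM against 104, 123 and 88.3 FPKM (log2FC 2.77 ± 0.36, adjusted p = 0.00087), and Akr1b8, an aldehyde reductase, at means of 5.93 and 31.2 FPKM (log2FC 2.20 ± 0.35). The glutathione synthesis genes Gclm and Gclc, with log2FC values of 0.85 and 0.52, were not called. Without control replicate 1 the count was 6 higher and 2 lower.

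Of 16 Langerhans and dendritic cell genes 6 were lower and 0 higher. Cd207, encoding langerin, a lectin found on Langerhans cells though not on them alone, was at 5.53, 5.39 and 6.84 FPKM against 1.18, 2.12 and 1.58 FPKM (log2FC -2.04 ± 0.41, adjusted p = 0.00494). Mgl2, a lectin of dermal dendritic cells and macrophages, was at 7.03, 6.74 and 14.8 FPKM against 1.04, 1.01 and 0.481 FPKM (log2FC -3.64 ± 0.60, adjusted p = 0.00194), and H2-Aa, a chain of MHC class II, at 22.4, 20.5 and 30.5 FPKM against 8.35, 10.8 and 9.21 FPKM (log2FC -1.55 ± 0.30, adjusted p = 0.00454).

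**Figure D5:**
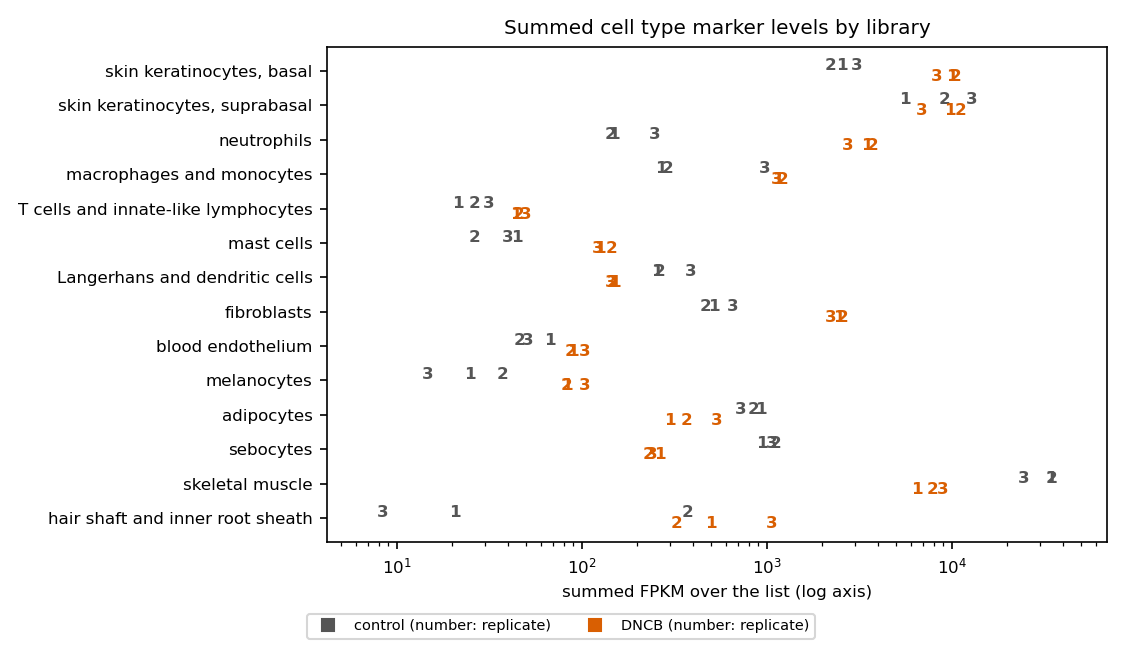
Summed FPKM over each of 14 cell type lists (log axis) by library; numbers are replicate numbers, grey for control and orange for DNCB. Neutrophil sums of 144 to 249 FPKM in the controls and 2730 to 3750 FPKM after DNCB are far apart, muscle and sebocyte sums fall, and the hair shaft sum of control replicate 2 lies with the DNCB libraries.

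The plot of summed marker levels sets the cell types side by side. T cell genes gave little and were divided, with 2 of 16 higher and 0 lower. Their median log2FC was -0.51 (-0.3 with genes at the floor placed at their bound). All DNCB libraries lay above all controls for 4 members and below for 2. DESeq2 called 2 members lower, and the fit without control replicate 2 called 1 lower. Trbc2, a constant segment of the T cell receptor, rose from 10.3, 15.5 and 14.7 FPKM to 33, 34.8 and 39.8 FPKM (log2FC 1.23 ± 0.27, adjusted p = 0.00825). Cd4 rose from 0.272, 0.163 and 0.436 FPKM to 0.768, 1.19 and 1.41 FPKM (log2FC 1.78 ± 0.55, adjusted p = 0.0357). Cd3e and Cd3d were under 0.7 FPKM in every library and were not called (adjusted p = 0.143 and 0.675), and Cd8a and Foxp3 were too low to be tested. Cd4 lost its call without DNCB replicate 2, DNCB replicate 3, control replicate 1 or control replicate 2 (adjusted p 0.0829 to 0.124), which leaves 1 of 16 members. The immunoglobulin gene Ighm fell from a mean of 14.4 to 4.92 FPKM (adjusted p = 0.0129; 0.0536 without DNCB replicate 3). Of 4 tested eosinophil and basophil genes 1 was higher and 1 lower (median log2FC 1.23). The higher count was 0 in every fit without a library other than DNCB replicate 1. The lower gene was Ear2, an eosinophil ribonuclease gene, at means of 3.55 and 0.46 FPKM. Ear2 lost its call without DNCB replicate 1, DNCB replicate 2 or control replicate 3 (adjusted p 0.0529 to 0.0677).

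Interferon-stimulated genes were not called in either direction, 0 of 24 by edgeR; 2 had all DNCB libraries above all controls and 2 had all below. Their sum was 78.4, 79.5 and 205 FPKM in the controls and 94.4 to 109 FPKM after DNCB, control replicate 3 again standing apart. At an unadjusted p under 0.05 there were 3 genes, and DESeq2 called 0.

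Some mast cell and melanocyte genes were higher. Of 13 mast cell genes 5 were higher and 0 lower, and 3 were higher in each fit that left out 1 of the 6 libraries. The higher count was 8 with the 6 libraries compared fitted alone and 8 without the scivMSC group. It was 7, with 1 lower, by DESeq2 and 4 with the replicate block. Tpsab1, a mast cell tryptase, was at 0.776, 0.536 and 0.115 FPKM against 10.3, 11.6 and 9.19 FPKM (log2FC 4.22 ± 0.82, adjusted p = 0.00414), Hdc, which makes histamine, at 1.28, 0.525 and 0.915 FPKM against 19.6, 20.3 and 12.5 FPKM (log2FC 4.08 ± 0.61, adjusted p = 0.00137), and Fcer1a, the IgE-binding receptor chain, at means of 0.198 and 2.88 FPKM (log2FC 3.60 ± 0.64, adjusted p = 0.00283). The chymases Cma1 and Mcpt4, with means of 8.46 and 10.7 FPKM against 23.8 and 29.9 FPKM, were not called (adjusted p = 0.1 and 0.123). This depended on the fit, as their adjusted p was below 0.05 in 3 and 2 of the alternatives. Of 10 melanocyte genes 4 were higher and 0 lower. Tyrp1, a melanin enzyme, was at 3.66, 4.68 and 3.13 FPKM against 16.8, 14.6 and 21.3 FPKM (log2FC 2.00 ± 0.27, adjusted p = 0.000959), and Tyr, the tyrosinase that starts pigment synthesis, was at means of 0.493 and 2.36 FPKM, although BALB/c mice are albino. Pmel, at means of 7.63 and 34.1 FPKM, lost its call without DNCB replicate 3 or control replicate 1 (adjusted p = 0.0601 and 0.0705).

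Skeletal muscle, which lies beneath mouse skin as the panniculus carnosus, was the group with the largest share of lowered genes after the Lce1 family, 17 of 20 with 0 higher (median log2FC -1.95). Pvalb, a calcium buffer of fast fibres, was at 1450, 1820 and 1030 FPKM against 112, 228 and 210 FPKM (log2FC -3.16 ± 0.47, adjusted p = 0.0013). The fast troponin Tnnc2 fell from 4720, 4780 and 3460 FPKM to 573, 695 and 794 FPKM (log2FC -2.85 ± 0.44, adjusted p = 0.00151), and Casq1 from a mean of 446 to 80.8 FPKM. Mitochondrial genes of muscle and other cells moved with these: 15 of 27 genes of the tricarboxylic acid cycle were lower and 0 higher, a count of 7 with library size as the only scaling. Adipocyte genes were lower in 8 of 16 cases and higher in 0. Cidea, a lipid droplet protein of brown fat and sebaceous glands, and Retn, the fat hormone resistin, fell from means of 38 and 28.7 FPKM to 7.99 and 6.94 FPKM (log2FC -2.43 ± 0.43 and -2.24 ± 0.36), while Adipoq, with a log2FC of -0.76, was not called. The adipocyte count became 4 with library size alone or without control replicate 1, and 5 without DNCB replicate 1 or DNCB replicate 2.

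Calls among hair shaft keratins depended on single libraries and on the fit. Of 23 genes of the shaft and inner root sheath 5 were higher and 0 lower (median log2FC 2.47), but the list summed to 20.6, 375 and 8.43 FPKM in control replicates 1 to 3 and to 497, 327 and 1070 FPKM in the DNCB group. Without control replicate 2 the count was 18 and the median 5.15, whereas the count was 0 without control replicate 1 or DNCB replicate 3, 1 without control replicate 3, 3 without DNCB replicate 1 and 8 without DNCB replicate 2. It was 0 when the 6 libraries compared were fitted alone, 2 with the replicate block, 9 with DESeq2 and 16 with limma on log2(FPKM + 0.1). Krt34 was at 0.0629, 0.903 and 0.0663 FPKM against 3.69, 1.42 and 10.2 FPKM (log2FC 3.63 ± 1.06, adjusted p = 0.0283), and for Krt33a and Krt81 too DNCB replicate 3 was the highest of its group and control replicate 2 the highest of the controls. All 3 lost their calls without DNCB replicate 3, control replicate 1 or control replicate 3 (adjusted p 0.0836 to 0.155), and Krt81 also without DNCB replicate 1 (0.0827). Among 24 follicle regulators only Bmp2 and Bmp4, signals that hold follicles at rest, were called, falling from 7.55, 5.3 and 4.42 FPKM to 1.98, 0.887 and 1.91 FPKM (log2FC -2.05 ± 0.39, adjusted p = 0.00382) and from means of 7.2 to 2.79 FPKM (log2FC -1.56 ± 0.27, adjusted p = 0.00258). Hair was clipped late in the schedule in both groups.

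Of 34 Wnt pathway genes 5 were lower and 2 higher, the latter 1 in each fit without a library other than control replicate 2. Wnt3, a ligand of epidermis and hair matrix, was at 12, 10.7 and 19 FPKM against 2.29, 2.73 and 2.25 FPKM (log2FC -2.69 ± 0.27, adjusted p = 0.000431). The secreted Wnt antagonists Frzb and Sfrp4 fell from means of 6.4 and 15.8 FPKM to 1.93 and 4.23 FPKM, the second a call lost without DNCB replicate 2, DNCB replicate 3 or control replicate 1 (adjusted p 0.0627 to 0.0843). Axin2, a general target of the pathway, had a log2FC of -0.06 and was not called.

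In the circadian clock a pair of activators, encoded by Clock and Arntl, drives repressors and a set of output transcription factors through E-box sequences. Of 18 genes 9 were lower and 1 higher (median log2FC -1.01). Dbp and Hlf, output factors of the PAR bZIP family, were at 40.9, 39.6 and 48.6 FPKM against 8.41, 10.3 and 7.98 FPKM (log2FC -2.45 ± 0.21, adjusted p = 0.00034) and at 6.42, 5.04 and 6.98 FPKM against 1.26, 1.56 and 1.14 FPKM (log2FC -2.40 ± 0.24, adjusted p = 0.000471). Nr1d1, Cry2, Per3 and Tef were lower too, with log2FC values of -1.49, -1.46, -1.45 and -1.18 and SE values of 0.13 to 0.23. Nfil3, which binds the same sites as Dbp and represses them, was the gene that rose, from 7.04, 6.54 and 5.18 FPKM to 19, 19.9 and 18.7 FPKM (log2FC 1.43 ± 0.20, adjusted p = 0.00115). Arntl and Clock were not called (adjusted p = 0.828 and 0.18). The time of day at which each group was killed is not given in the sources used here, so treatment and hour cannot be told apart.

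Ciart, a repressor within the clock, fell from 4.54, 4.89 and 7.23 FPKM to 2.19, 2.48 and 1.9 FPKM (log2FC -1.51 ± 0.26, adjusted p = 0.00228). Its promoter (250 bases before the RefSeq start, GRCm38.p6, 5′ to 3′) is shown because it holds 3 copies of the E-box CACGTG, in capitals.
Ciart (chr3:95882229-95882478, minus strand): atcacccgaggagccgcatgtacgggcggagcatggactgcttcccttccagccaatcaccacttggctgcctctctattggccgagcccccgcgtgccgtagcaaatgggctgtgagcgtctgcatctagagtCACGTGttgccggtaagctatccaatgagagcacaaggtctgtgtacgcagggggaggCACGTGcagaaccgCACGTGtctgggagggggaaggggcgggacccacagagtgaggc
The first copy begins 116 bases before the start. CACGTG, which reads the same on both strands, occurred in 7.6% of promoters of the genes tested, in 5.94% of those of genes called higher and in 7.23% of those of genes called lower, and in 6.02% of all promoters.

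Terms of the Gene Ontology annotation in the file, whose members were not picked by hand, were counted in the same way. The 14 terms themselves were picked with earlier results of these data known, so their counts are no independent check. Not all of them are given here. Of 291 tested genes of inflammatory response 63 were higher and 13 lower, and of 234 genes of angiogenesis 44 and 20. Of 348 tested genes of cell division 77 were higher and 6 lower, of 70 genes of neutrophil chemotaxis 22 and 2, and of 46 genes of collagen fibril organization 17 and 2. Of 47 genes of glutathione metabolism 4 were higher and 6 lower (median log2FC -0.30), unlike the list of electrophile defence above, and of 129 genes of rhythmic process 7 were higher and 15 lower (median 0.05), a broader term than the clock list. Of 55 keratinization genes 17 were higher and 15 lower. Fatty acid metabolism had 6 higher and 45 lower genes of 178, and sarcomere organization 4 and 16 of 34. The 6 became 3 without control replicate 1 and the 4 became 2 without control replicate 2.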

How the data were processed

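Total RNA of dorsal skin was sequenced in 12 libraries of 4 groups, and the control (Solvent) and DNCB groups were compared. Per the deposited table, the authors gave an estimated count and an FPKM value for each gene and library. The submitters' processing notes name HISAT2 2.0, StringTie 1.3.0 and Bowtie 0.12.2 and a build, mm8, that the coordinates do not follow: 36285 of 36287 matched gene identifiers overlap their GRCm38 positions. Low counts are heaped at multiples of 4; 4 counts were assumed to stand for 1 fragment, and a floor of 3 fragments (12 counts) per library was used for genes at 0.

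Genes averaging 0.1 FPKM or more across all 12 libraries entered the test, on the whole-number counts as deposited, by edgeR 4.0.16 (R 4.3.3) with TMM scaling and the quasi-likelihood F-test over all 4 groups, with Benjamini-Hochberg adjustment. A gene was called with the adjusted p below 0.05 and a log2 fold change beyond 1 either way. Alternatives used DESeq2 1.42.0, limma 3.58.1 on log2(FPKM + 0.1) and log2(FPKM + 1), other scalings and filters, a replicate block, and each library left out. The fit was tested on simulated data in which 200 genes were changed, far fewer than were called here. It called 12% of 2-fold changes, which sit at the fold threshold, and 50% of 4-fold, 78% of 8-fold and 82% of 16-fold changes. Of the unchanged genes 7 were called. Named genes were the 12 called genes per direction with the largest change, no overlap between groups and a mean of at least 5 FPKM in the higher group (predicted genes left out), and up to 3 called members per list with the largest change and at least 1 FPKM there. Other genes lie outside this rule and were chosen after their values were seen. Members and lists were chosen with earlier results of these data known. The strandedness of the counting is not given in the sources used here, so values of Adamts4, Col3a1, Dbp, Fosl1, Il31ra, Clock and Tjp3, which overlap a gene of comparable level, are uncertain, as are those of near-identical families (Lce1, Lce3, Sprr2, stefins, Mrgpra2, Serpinb3). Promoters came from RefSeq (GRCm38.p6).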

Additional observations from a re-analysis of the deposited data

How the results depend on the processing

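No gene called in the comparison of DNCB with control changed its sign under any alternative tried. The calls themselves were less stable. With 1 library left out 73.4% to 82.8% of them were kept, and with limma on log2(FPKM + 1) 57.6%. The total of 3098 genes was 5541 with the adjusted p alone, of which 2833 were higher and 2708 lower. With limma, 2192 genes were higher on log2(FPKM + 0.1) and 849 were lower on log2(FPKM + 1). Leaving out 1 library gave 1052 to 1297 higher and 1319 to 1727 lower genes. The replicate block gave 2866 genes (1308 higher and 1558 lower). Same-numbered libraries did not deviate together (correlations 0.0139, -0.0422 and -0.0678), so the numbers were not taken as pairs. Leaving out the combined-route stem cell group, an alternative chosen after seeing the data, gave 1463 higher and 1667 lower genes. At a mean of at least 1 FPKM the T cell median was 0.25 (main fit -0.51). In that setting the eosinophil and basophil median was -3.11 (main fit 1.23) and the Wnt median -0.02 (main fit 0.05). Medians near 0 also changed sign in other lists: follicle regulators (0.34 without control replicate 2, 0.15 and 0.05 with limma), hypoxia and glycolysis (-0.16 without control replicate 1, -0.09 without DNCB replicate 1), interferon-stimulated genes (0.17 without control replicate 3, 0.03 with limma), chemokines for monocytes and T cells (-0.09 without control replicate 1 or 2), epidermal proteases (-0.18 without control replicate 1, -0.08 without DNCB replicate 2), Wnt (-0.06 without control replicate 3) and ceramide enzymes (0.04 with library size alone and with limma). The log2 fold change of Tslp was 0.22 and 0.0714 with limma and -0.76 to 0.69 with 1 library left out, that of Il17a 0.38 with the replicate block and -1.17 to 0.0372 with 1 left out, and that of Krt10 -0.0685 to 0.52 with 1 left out. That of Arntl was 0.1 with library size alone, 0.12 and 0.0704 with limma and -0.26 to 0.0231 with 1 left out. The cause was not tested. Flg, Clock and Defb4, which were not called, each had an adjusted p below 0.05 in 1 alternative. With 3 libraries a group, a gene that missed the threshold is not shown to be unchanged.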
